A study of Mus musculus with 4 samples.

Results

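BAF complexes (the mammalian SWI/SNF family) are large assemblies that use ATP to slide and evict nucleosomes, and so open or close DNA to other factors. Each assembly holds 1 ATPase, SMARCA4 (also called BRG1) or SMARCA2, a shared core and a set of subunits that divides the family into canonical BAF with ARID1A or ARID1B, PBAF with ARID2 and PBRM1, and non-canonical BAF (ncBAF) with BRD9. Embryonic stem cells are known for a form of the complex built on SMARCA4, SMARCC1, SMARCD1, ARID1A and ACTL6A, which they need for self-renewal. Many of the subunits belong to small families, and cells exchange 1 relative for another as they differentiate.

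The 10 genes described here are Smarca4, Smarcb1, Smarcc1, Smarcc2, Smarcd1, Smarce1, Arid1a, Arid1b, Brd9 and Actl6a, taken by symbol from a table of 22138 genes because they encode subunits of BAF in embryonic stem cells. All 10 were found. Measured expression played no part in the rule, but the genes were chosen with earlier results of these data known. The cells were TT2, an established line of mouse embryonic stem cells (strain C57BL/6xCBA, female per the labels). They were kept feeder-free with serum and LIF, the cytokine that keeps such cells undifferentiated, and their RNA was sequenced. Cells were transfected with control siRNA (n = 2 libraries) or with siRNA against Hnrnpk (n = 2 libraries). Both groups were transfected at 100 nM and again at 50 nM after 24 hours, and were harvested about 72 hours after that, so both carry the transfection itself. Hnrnpk encodes hnRNP K, a protein that binds C-rich RNA and DNA, and the comparison asked which transcripts changed when it was reduced.

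The targeted transcript was lower in both libraries labelled Hnrnpk siRNA. Hnrnpk had 236 and 226 RPKM in control libraries and 68.0 and 70.5 RPKM after Hnrnpk siRNA. RPKM are reads scaled to the length of the gene and the size of the library, so levels of different genes can be compared per length. Low values showed a depth of 0.982, 0.891 and 0.882 in control replicate 2 and Hnrnpk siRNA replicates 1 and 2, relative to control replicate 1. The absolute number of reads is not given in the table. Groups were compared with limma on log2(RPKM + 0.5) over the 12486 genes averaging 0.5 RPKM or more, and a gene was called when its Benjamini-Hochberg adjusted p lay under 0.05. The 10 embryonic stem cell markers checked (Pou5f1, Sox2, Nanog and others) summed to 3935 to 4094 RPKM in control libraries and to 4699 to 5022 RPKM after Hnrnpk siRNA. That sum was led by Dppa5a, which rose from a mean of 1298 to 2308 RPKM. Of the 10 markers 2 were called higher and 4 lower, with a median log2 change of -0.15. Sox2 was among those called lower (-0.53), and Pou5f1 was not called (-0.15). Markers of primitive endoderm, an early extraembryonic lineage, summed to 5.17 to 5.20 RPKM and then to 30.3 to 30.9 RPKM, and those of trophectoderm to 3.53 to 3.93 RPKM and then to 16.5 to 16.6 RPKM. Fibroblast markers summed to 8.79 to 10.4 RPKM and then to 5.05 to 5.31 RPKM, with 5 of 8 below 0.5 RPKM in every library. The 4 neural markers found summed to 103 to 116 RPKM and then to 84.7 to 94.9 RPKM, and all 3 of them that were tested were called lower. Mesoderm markers summed to 3.28 to 3.46 RPKM and then to 2.58 to 2.73 RPKM, with 1 of 3 tested called higher and 1 lower. Of all genes tested, 32.2% were called higher, 35.0% lower and 67.2% in either direction. The counts of embryonic stem cell and mesoderm markers called stand near that background. The part of these lineage markers in the results on BAF genes was not tested, and in bulk RNA fewer cells of a type and less RNA per cell cannot be told apart.

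The stretches of DNA just before the start sites of 5 of the genes are shown because these genes carry the main results: Smarcc2 fell furthest, Smarcc1 is its relative that was not called, Smarca4 is the ATPase, Arid1a is the defining subunit of canonical BAF, and Brd9 was the gene that rose. Each runs 5′ to 3′ on the gene's strand over the 250 bases before the start site in RefSeq (GRCm38.p6), and capitals mark CCCTCCC or its reverse complement GGGAGGG, a C-rich run of the kind hnRNP K is known to bind.
Smarcc2 (chr10:128458986-128459235, plus strand): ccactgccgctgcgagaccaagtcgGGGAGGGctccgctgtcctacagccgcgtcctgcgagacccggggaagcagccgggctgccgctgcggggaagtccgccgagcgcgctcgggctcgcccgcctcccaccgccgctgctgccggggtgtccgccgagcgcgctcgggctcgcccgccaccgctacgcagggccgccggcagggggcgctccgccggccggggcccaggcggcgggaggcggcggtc
Smarcc1 (chr9:110131774-110132023, plus strand): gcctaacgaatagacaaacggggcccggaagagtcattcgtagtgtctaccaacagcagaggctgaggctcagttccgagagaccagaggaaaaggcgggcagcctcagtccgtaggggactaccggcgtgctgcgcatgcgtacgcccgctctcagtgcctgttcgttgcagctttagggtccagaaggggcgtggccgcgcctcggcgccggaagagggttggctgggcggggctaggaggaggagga
Smarca4 (chr9:21615919-21616168, plus strand): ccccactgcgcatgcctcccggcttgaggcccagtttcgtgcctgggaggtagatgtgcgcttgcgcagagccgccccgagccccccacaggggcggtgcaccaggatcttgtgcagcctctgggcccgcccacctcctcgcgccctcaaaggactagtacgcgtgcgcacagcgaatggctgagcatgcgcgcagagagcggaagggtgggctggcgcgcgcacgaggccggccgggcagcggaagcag
Arid1a (chr4:133753986-133754235, minus strand): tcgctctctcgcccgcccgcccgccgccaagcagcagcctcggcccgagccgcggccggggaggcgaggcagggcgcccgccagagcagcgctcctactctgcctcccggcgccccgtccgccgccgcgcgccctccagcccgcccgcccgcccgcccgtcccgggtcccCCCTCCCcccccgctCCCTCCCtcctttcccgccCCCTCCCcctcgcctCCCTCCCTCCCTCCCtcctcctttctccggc
Brd9 (chr13:73937561-73937810, plus strand): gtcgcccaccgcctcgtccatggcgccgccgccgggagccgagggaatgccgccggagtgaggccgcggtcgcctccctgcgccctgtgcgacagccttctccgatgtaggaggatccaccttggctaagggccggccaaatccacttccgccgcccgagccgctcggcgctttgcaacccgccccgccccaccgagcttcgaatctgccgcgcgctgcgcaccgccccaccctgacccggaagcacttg

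RefSeq gave such windows for 9 of the 10 genes, 11 windows in all. Arid1a and Brd9 each had more than 1 window, and those of Brd9 overlap over most of their length. The motif was searched on both strands and no other motif was searched, though copies may overlap each other. It was present in 4 of the 11 windows, against 19.7% of the 32851 mouse promoter windows of the same length. The 4 were those of Smarcc2 (1 copy), Smarcd1 (1 copy), Actl6a (1 copy) and the Arid1a window shown (6 copies, some overlapping). The other Arid1a window (chr4:133756770-133757019), not shown, lies further upstream on the minus strand and had no copy on either strand. Windows with the motif thus belonged to genes that fell and to Actl6a, which was not called. Genes without the motif in their window (Smarca4, Smarcb1, Arid1b) fell as well. The Arid1b window, counted here, can be read as codons to its end without a stop. It may therefore lie within coding sequence, and it says little about the promoter of Arid1b. The windows were rich in CpG, with 18 to 40 CpG each, against a median of 6 over all windows. Their GC content was 59.6% to 81.6%, against a median of 52.4%, and the 19.7% was not matched for GC. A match is a run of letters and not a measured binding site.

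After Hnrnpk siRNA, 6 of the 10 subunit transcripts were called lower (Smarcc2, Arid1b, Smarca4, Arid1a, Smarcd1 and Smarcb1), 1 was called higher (Brd9), and 3 were not called (Smarcc1, Smarce1 and Actl6a). Among all genes tested, 35.0% were called lower, 32.2% higher and 67.2% in either direction, so the 7 of 10 called stand near the background. The falls were modest: the 6 transcripts kept between 0.552 and 0.844 of their control level. The median log2 change of the 10 was -0.29, beside -0.015 over all genes tested. No subunit among the 10 reached a log2 change of 1 in size, which 8.51% of all genes did together with a call. The libraries of the groups did not overlap for 8 of the 10 genes, against 84.7% of all genes tested.

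**Figure D1:**
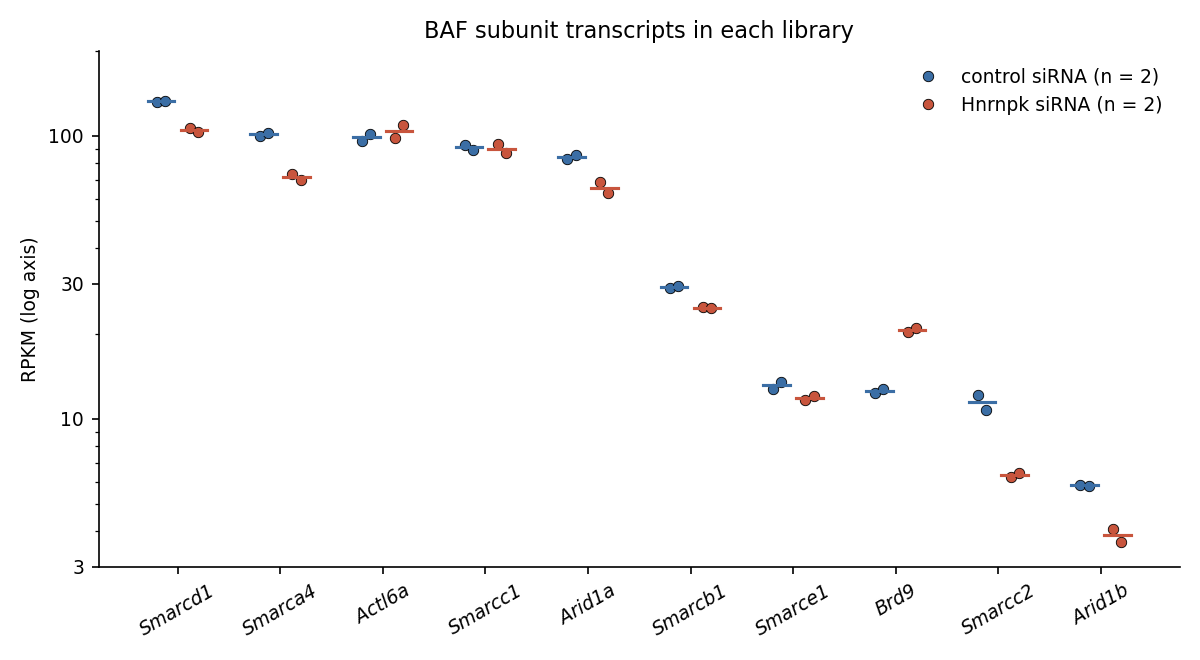
RPKM (log axis) of the 10 BAF subunit transcripts in each library, ordered by control level; points are single libraries, 2 per group, and lines are group means. Smarca4, Smarcd1, Arid1a, Smarcb1, Smarcc2 and Arid1b lie lower in both Hnrnpk siRNA libraries, Brd9 lies higher, and the groups overlap for Actl6a and Smarcc1.

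In control cells the subunits spanned a wide range per kilobase. Smarcd1 was the most abundant at 132 ± 0.677 RPKM (SD, n = 2), followed by Smarca4, Actl6a, Smarcc1 and Arid1a between 84.1 and 102 RPKM. Libraries of Smarca4 and Actl6a overlapped in level, whereas each of the other neighbours in this upper group was separated. Smarcb1 followed at 29.2 ± 0.441 RPKM, then Smarce1 and Brd9, which overlapped with each other at means of 13.1 and 12.6 RPKM, then Smarcc2 at 11.5 ± 0.967 RPKM and Arid1b at 5.81 ± 0.0631 RPKM (SD, n = 2 each). The genes of the known stem cell form were thus the most abundant members of their pairs, Smarcc1 over Smarcc2 and Arid1a over Arid1b. After Hnrnpk siRNA the order changed in 2 places. Smarca4 dropped from rank 2 to rank 4, below Actl6a and Smarcc1, and Brd9 passed Smarce1.

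The ATPase came first. Smarca4 (ENSMUSG00000032187, chromosome 9) encodes the motor that remodels nucleosomes in these cells. It had 100.3 and 103 RPKM in control libraries and 73.1 and 70.1 RPKM after Hnrnpk siRNA. Both Hnrnpk siRNA libraries were lower, and the gap was many times the difference between replicates (log2 change -0.50, SE 0.0615, limma adjusted p = 7.21e-05). Its relative Smarca2 (ENSMUSG00000024921, chromosome 19), the alternative ATPase that many differentiated cells use, was near the detection filter at 0.528 and 0.536 RPKM with control siRNA and 0.869 and 0.849 RPKM after Hnrnpk siRNA. It was called higher (log2 change 0.40, limma adjusted p = 0.00419), but its level remained a small fraction of that of Smarca4. Smarca4 made up 99.5% of the summed RPKM of both ATPases in each control library and 98.8% in each Hnrnpk siRNA library. The sum fell to a ratio of 0.71, from 102 ± 1.75 to 72.5 ± 2.13 RPKM (SD, n = 2 each).

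The core scaffold pair diverged. SMARCC1 and SMARCC2 are related proteins that pair up as the base on which the complex is built, and embryonic stem cells are known to favour SMARCC1. Smarcc2 (ENSMUSG00000025369, chromosome 10) had 12.1 and 10.8 RPKM in control libraries and 6.23 and 6.42 RPKM after Hnrnpk siRNA. This was the largest log2 change in size among the 10 (-0.81, SE 0.0807, limma adjusted p = 1.98e-05), and the groups were far apart. Smarcc1 (ENSMUSG00000032481, chromosome 9) had 93.0 and 89.1 RPKM in control libraries and 93.4 and 86.8 RPKM after Hnrnpk siRNA. Its libraries overlapped between groups, and the log2 change was -0.016 with a 95% interval of -0.16 to 0.13 (limma adjusted p = 0.846). Its sign was positive without control siRNA replicate 1 (0.016) and without Hnrnpk siRNA replicate 2 (0.037). The Smarcc1 share of the summed pair was 88.5% and 89.2% in control libraries and 93.8% and 93.1% after Hnrnpk siRNA. Since Smarcc1 held most of the pair, the sum moved little, to a ratio of 0.941. Smarcc1 shares 17.4% of its longest coding transcript with the gene Gm7004 at 95% identity or more, and how reads matching both were counted is not known here.

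Smarcd1 (ENSMUSG00000023018, chromosome 15) encodes a core subunit that links the complex to transcription factors. It had 132 and 133 RPKM in control libraries and 107 and 103 RPKM after Hnrnpk siRNA. Both Hnrnpk siRNA libraries were lower (log2 change -0.33, SE 0.0609, limma adjusted p = 0.000936). Smarcd1 shares 12.4% of its transcript with 2 other genes, chiefly Gm17349. The related Smarcd2 (ENSMUSG00000078619, chromosome 11) was lower by a similar amount, from 41.8 ± 1.91 to 32.8 ± 0.0465 RPKM (n = 2 each, SD; log2 change -0.35, limma adjusted p = 0.000926). Smarcd3 (ENSMUSG00000028949, chromosome 5), the relative known from heart and muscle, had 2.66 and 2.55 RPKM and then 0.984 and 1.04 RPKM. With a log2 change of -1.04 it moved furthest of the BAF genes tested (limma adjusted p = 7.59e-06). Part of its signal is uncertain, because 30.2% of its transcript is shared with Chpf2, which had 1.43 and 1.48 RPKM in control libraries and 1.15 and 1.12 RPKM after Hnrnpk siRNA. Smarcd1 made up 74.9% ± 0.937 of the summed RPKM of the 3 Smarcd genes in control libraries and 75.7% ± 0.455 after Hnrnpk siRNA (SD, n = 2 each), while the Smarcd3 share went from 1.47% to 0.728%.

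Among the remaining core subunits, Smarcb1 (ENSMUSG00000000902, chromosome 10), a tumour suppressor whose product contacts the nucleosome, had 28.9 and 29.5 RPKM in control libraries and 24.7 and 24.6 RPKM after Hnrnpk siRNA. The fall was the smallest of the 6 called but was separated from the replicate spread (log2 change -0.24, SE 0.0616, limma adjusted p = 0.00648). Smarce1 (ENSMUSG00000037935, chromosome 11), which carries a DNA-binding HMG domain, had 12.8 and 13.5 RPKM and then 11.6 and 12.01 RPKM. Its groups did not overlap, but the log2 change of -0.15 was not called (95% interval -0.30 to 0.011, limma adjusted p = 0.0895). It was called lower when each library's trend on GC content was removed (-0.31, adjusted p = 0.00266, alternatives from 0.00126 to 0.321). Smarce1 shares 42.3% of its transcript with 4 other genes, chiefly Gm8494, so its level is uncertain. Actl6a (ENSMUSG00000027671, chromosome 3), an actin-related subunit of dividing and stem cells, had 95.9 and 102 RPKM and then 98.3 and 109 RPKM. The groups overlapped (log2 change 0.067, 95% interval -0.094 to 0.23, limma adjusted p = 0.431), and the sign was negative under quantile normalization (-0.013) and without Hnrnpk siRNA replicate 2 (-0.0084). Actl6a shares 22.5% of its transcript with Mrpl47. Actl6b, its counterpart in neurons, was at 0.0295 to 0.0395 RPKM over the 4 libraries and was not tested. Actb, the actin that pairs with ACTL6A in the complex, was at 1777 ± 64.4 and 1645 ± 63.3 RPKM (SD, n = 2 each) and was not called (limma adjusted p = 0.27), although quantile normalization called it lower (-0.46, adjusted p = 2.69e-05, alternatives from 2.69e-05 to 0.822).

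Canonical BAF is defined by ARID1A or ARID1B, large subunits that exclude each other. Arid1a (ENSMUSG00000007880, chromosome 4) had 82.6 and 85.7 RPKM in control libraries and 68.5 and 62.8 RPKM after Hnrnpk siRNA. Arid1b (ENSMUSG00000069729, chromosome 17) had 5.86 and 5.77 RPKM and then 4.08 and 3.66 RPKM. For both genes, both Hnrnpk siRNA libraries were lower than either control library. The log2 changes were -0.36 for Arid1a (SE 0.0668, limma adjusted p = 0.00107) and -0.53 for Arid1b (SE 0.0838, adjusted p = 0.000364). The less abundant relative therefore did not rise while the main one fell, and their summed RPKM went from 89.96 ± 2.15 to 69.5 ± 4.31 (SD, n = 2 each), a ratio of 0.773. Canonical BAF also holds a DPF subunit, from a PHD-finger family that reads modified histones. Dpf2 (ENSMUSG00000024826, chromosome 19) rose from 25.8 ± 0.061 to 33.8 ± 0.0916 RPKM (n = 2 each, SD; log2 change 0.38, limma adjusted p = 0.000377). Dpf1 was not called at 4.83 ± 0.158 and 4.54 ± 0.583 RPKM (SD, n = 2 each; limma adjusted p = 0.448), and Dpf3 was at 0.0317 to 0.141 RPKM and not tested.

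The ncBAF complex holds BRD9, a bromodomain protein that binds acetylated lysines, and lacks SMARCB1, SMARCE1 and the ARID subunits. Brd9 (ENSMUSG00000057649, chromosome 13) had 12.3 and 12.8 RPKM in control libraries and 20.2 and 20.98 RPKM after Hnrnpk siRNA. Both Hnrnpk siRNA libraries were higher, a rise to a ratio of 1.64 (log2 change 0.69, SE 0.0667, limma adjusted p = 1.6e-05). Its level relative to Smarca4, the main ATPase here, was 12.3% and 12.4% in control libraries and 27.6% and 29.9% after Hnrnpk siRNA. Gltscr1, now called Bicra, which encodes the other ncBAF subunit measured, had 8.79 ± 0.178 and 9.66 ± 0.693 RPKM (SD, n = 2 each). It was not called (log2 change 0.13, limma adjusted p = 0.172), although it was called higher with GC trends removed (0.26, adjusted p = 0.0194, alternatives from 0.0126 to 0.682).

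**Figure D2:**
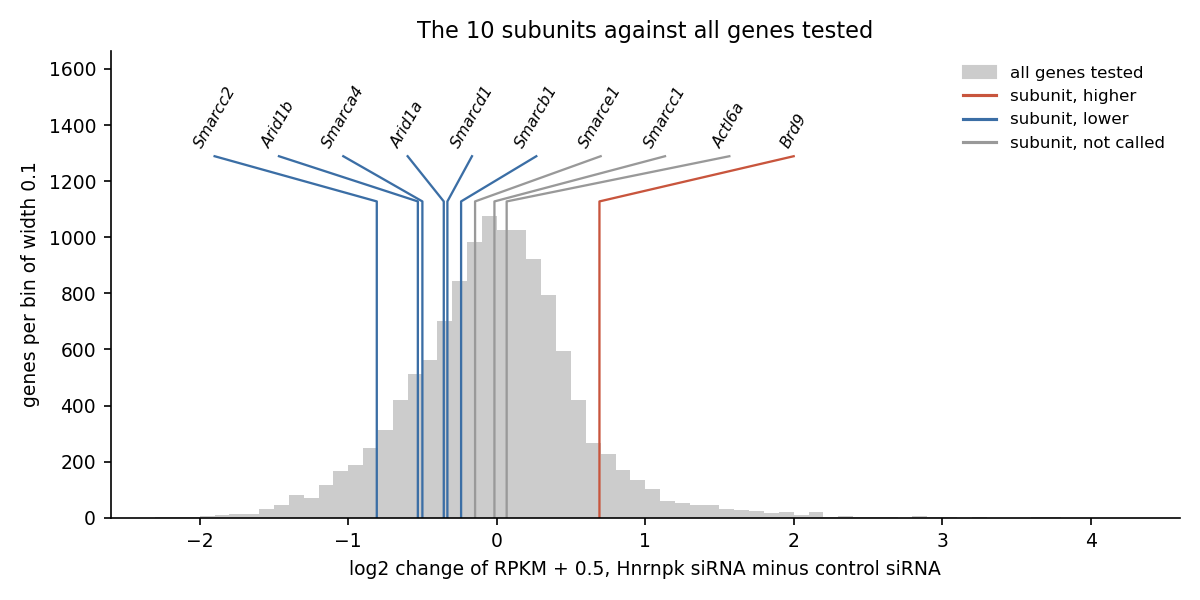
Log2 change (Hnrnpk siRNA minus control siRNA) of the 12486 genes tested, as genes per bin of width 0.1 (grey bars), with the 10 subunits drawn as lines from their value. Smarcc2 at -0.81 and Brd9 at 0.69 lie furthest out on either side, inside the spread of all genes.

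The rest of the family was examined as a list of other BAF subunits, of which 20 genes were found and 17 were tested. In it 5 were called higher and 7 lower, with a median log2 change of -0.11. Over all 27 BAF genes tested, 6 were called higher and 13 lower, 19 in all (limma; 67.2% of all genes were called). PBAF, the form with ARID2, PBRM1, BRD7 and PHF10, is known for binding acetylated promoters. Phf10 (ENSMUSG00000023883, chromosome 17) fell from 18.0 ± 0.469 to 11.7 ± 0.353 RPKM (n = 2 each, SD; log2 change -0.60, limma adjusted p = 4.08e-05), with 26.1% of its transcript shared with 1600012H06Rik, which had 6.77 and 6.56 RPKM and then 8.69 and 9.11 RPKM. Pbrm1 had 22.2 and 22.8 RPKM and then 19.4 and 17.5 RPKM (log2 change -0.28, limma adjusted p = 0.00609). Its call was lost without Hnrnpk siRNA replicate 2 (adjusted p = 0.0704) and with no filter on low values (adjusted p = 0.0676, alternatives from 0.000166 to 0.0704). Arid2 had 22.9 and 22.8 RPKM and then 21.4 and 19.4 RPKM, and its log2 change of -0.16 was not called (limma adjusted p = 0.0639). It was called lower with the replicate number as a block (adjusted p = 0.0464), with GC trends removed (0.0157) and without Hnrnpk siRNA replicate 1 (0.0477), alternatives from 0.00867 to 0.398. Brd7 had 24.2 and 23.6 RPKM and then 27.03 and 27.2 RPKM (log2 change 0.18, limma adjusted p = 0.028). That call was lost without control siRNA replicate 2, without either Hnrnpk siRNA replicate, with GC trends removed and without limma's trend (adjusted p from 0.0197 to 0.12 among the alternatives).

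Accessory subunits shared between the complexes went both ways within 1 gene family. Bcl7b rose from 10.7 ± 0.255 to 14.6 ± 0.639 RPKM, while Bcl7a fell from 3.87 ± 0.243 to 2.58 ± 0.0779 RPKM and Bcl7c from 6.44 ± 0.32 to 3.46 ± 0.422 RPKM (n = 2 each, SD). Their log2 changes were 0.43, -0.50 and -0.81, and the highest limma adjusted p was 0.000626. Bcl7c shares 26.8% of its transcript with Gm3219. The summed RPKM of the 3 genes was 20.98 ± 0.308 in control libraries and 20.6 ± 1.14 after Hnrnpk siRNA (SD, n = 2 each). Ss18, whose product sits on the ATPase and is fused to other proteins in synovial sarcoma, had 34.1 and 33.6 RPKM and then 39.6 and 39.8 RPKM (log2 change 0.23, limma adjusted p = 0.00763). It was not called with GC trends removed (adjusted p = 0.0528, alternatives from 0.00389 to 0.0528), and it shares 22.6% of its transcript with Gm1826. Ss18l1, the neuronal counterpart, was at 2.96 ± 0.215 and 2.75 ± 0.151 RPKM (SD, n = 2 each) and was not called (limma adjusted p = 0.401). Bcl11b, a zinc-finger factor that associates with BAF in lymphocytes and neurons, was low at 0.841 ± 0.0781 and 0.513 ± 0.0625 RPKM (n = 2 each, SD; log2 change -0.40, limma adjusted p = 0.0059). Its call was lost without Hnrnpk siRNA replicate 1 (adjusted p = 0.0798, alternatives from 0.000717 to 0.0798). Bcl11a was at 0.0599 to 0.1 RPKM and not tested.

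**Figure D3:**
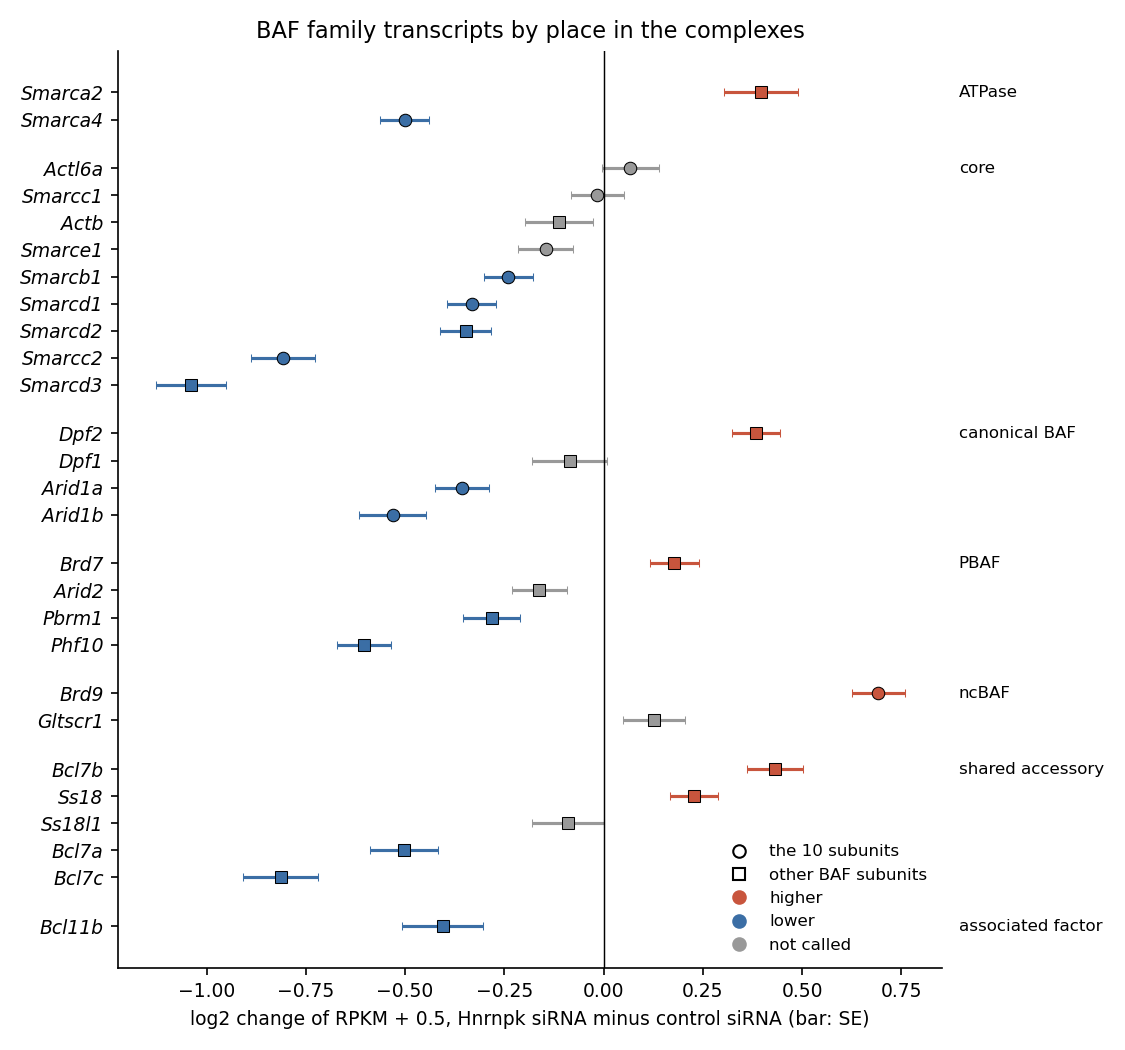
Log2 change of RPKM + 0.5 (Hnrnpk siRNA minus control siRNA, bars SE) for the 27 BAF genes tested, grouped by place in the complexes; circles are the 10 subunits, squares other BAF genes, and colours give limma's call. ARID1 genes, Smarca4 and the Smarcd genes lie below 0, and Brd9, Dpf2, Bcl7b and Smarca2 lie above it.

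The log2 ratio of RPKM + 0.5 between related subunits was compared between groups for 9 pairs, and 7 pairs had groups that did not overlap. Groups also did not overlap for 84.7% of all single genes tested, and no such share over pairs was computed. With 2 libraries against 2, the exact permutation test (two-sided) cannot give a p below 0.33, which those 7 pairs reached, so the ratios are descriptions. Dpf2 to Phf10 had log2 ratios of 0.54 and 0.48 in control libraries and of 1.52 and 1.47 after Hnrnpk siRNA. Its difference of 0.99 was the largest with 0.5 RPKM added. Smarca4 to Smarca2 went from 6.61 and 6.64 to 5.75 and 5.71, a difference of -0.90 that depends on the added 0.5 RPKM because Smarca2 is low. The Smarca4 to Smarca2 difference was -1.10 with 0.1 RPKM added and -1.01 under quantile normalization, so which pair differed most depends on the setting. Smarcc1 to Smarcc2 went from 2.89 and 2.99 to 3.80 and 3.66, and Smarcd1 to Smarcd3 from 5.39 and 5.45 to 6.17 and 6.08. These pairs shifted toward the more abundant relative, whereas Smarca4 to Smarca2 shifted toward the minor one. Smarcd3 is low as well, and its own log2 change was -1.28 with 0.1 RPKM added and -0.84 with 1 RPKM added. Smaller differences were seen for Brd9 to Brd7 (0.51), Ss18 to Ss18l1 (0.32) and Arid1a to Arid1b (0.17). Under quantile normalization the difference was 0.17 for Ss18 to Ss18l1 and 0.047 for Arid1a to Arid1b. Groups overlapped for Smarcd1 to Smarcd2 (difference 0.015, exact p = 1) and for Actl6a to Actl6b, where Actl6b was close to 0.

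**Figure D4:**
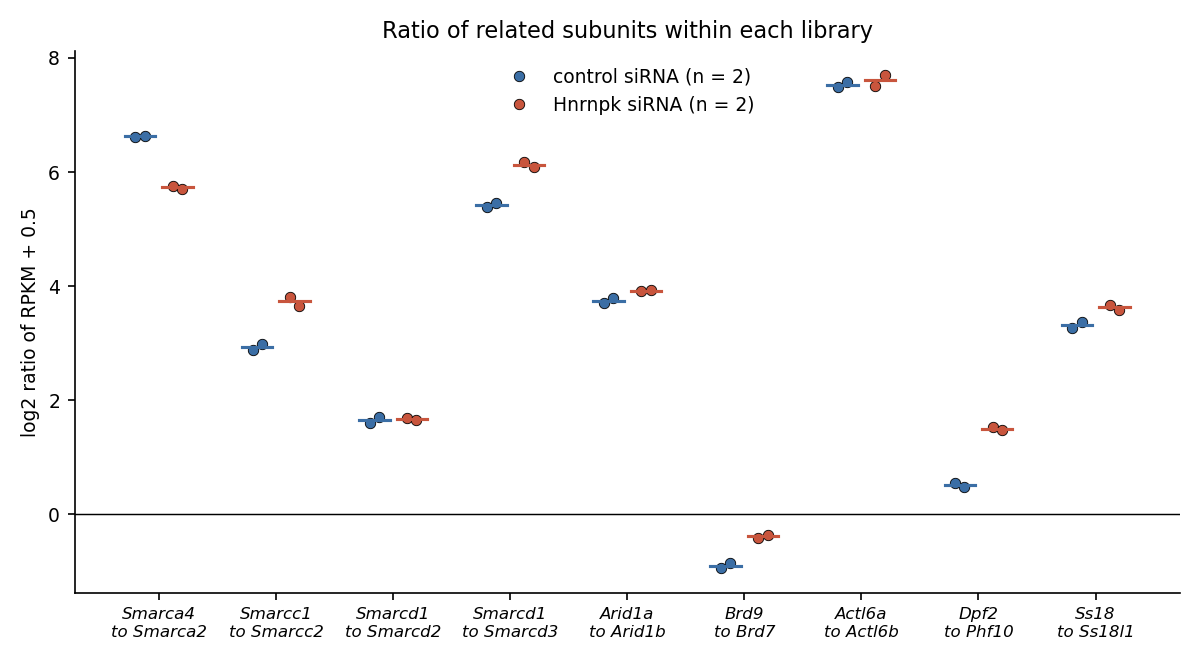
Log2 ratio of RPKM + 0.5 for 9 pairs of related subunits; points are libraries, 2 per group, and lines are group means. The groups separate for 7 pairs, while Smarcd1 to Smarcd2 and Actl6a to Actl6b overlap.

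GC content moved with the groups across the whole table and is set here beside the BAF values. The median log2 change was 0.087 in the lowest of 4 equal classes of tested genes by GC (up to 45.3%) and -0.14 in the highest class (from 55.04%). Of the 6 subunits called lower, Smarcd1 (57.2%), Arid1a (56.7%) and Smarca4 (55.9%) fall in the highest class, while Smarcc2 (54.3%), Arid1b (52.9%) and Smarcb1 (49.3%) do not. With the GC trend of each library removed, all 6 remained called lower and Brd9 higher. The log2 changes were then -0.42 for Smarca4, -0.27 for Arid1a, -0.23 for Smarcd1, -0.75 for Smarcc2 and 0.67 for Brd9.

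Subunits of other ATP-dependent remodellers give a frame for these values. Of the 12 ISWI-family genes, 3 were called higher and 6 lower by limma, with a median log2 change of -0.14. The number called lower was 2 without Hnrnpk siRNA replicate 2 and 3 without a filter on low values. Cecr2 fell from 28.2 ± 1.93 to 17.9 ± 0.722 RPKM, Smarca1 fell from 2.49 ± 0.252 to 1.18 ± 0.0739 RPKM, and Pole3 rose from 23.2 ± 1.36 to 32.8 ± 1.77 RPKM (SD, n = 2 each). The INO80 and SRCAP-TIP60 list, with 21 rows since Srcap has 2 identifiers, had 8 called higher and 6 lower and a median of -0.072, with 5 higher and 3 lower when no filter was used. Ino80b rose from 20.5 ± 0.305 to 41.2 ± 2.41 RPKM and Yy1 from 44.8 ± 1.66 to 61.9 ± 0.454 RPKM, while Uchl5 fell from 69.5 ± 3.38 to 45.3 ± 0.292 RPKM (SD, n = 2 each). Of all genes tested, 32.2% were called higher and 35.0% lower, and 67.2% in either direction, so the 9 of 12 and 14 of 21 called in these lists, like the BAF genes, stand near the background.

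Smarcc2, the subunit with the largest change, was set beside all other tested genes. The measure was the distance between centred values of log2(RPKM + 0.5) over the 4 libraries. The nearest were Pcsk1n (26.4 and 23.4 RPKM with control siRNA, then 13.7 and 14.1 RPKM), Kif5a (2.65 and 2.34, then 1.19 and 1.25 RPKM) and Hcn3 (0.974 and 0.812, then 0.278 and 0.29 RPKM). Their distances were 0.0093, 0.018 and 0.024. With 4 libraries in 2 groups, such likeness mainly says that the genes fell by a similar amount and differed alike between the control libraries.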

How the data were processed

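The authors deposited 1 table of RPKM per gene, with a column for each of the 4 libraries and replicates not pooled. Per the submitters' processing notes, BWA, SAMtools and the build mm9 were used. The counting tool, its annotation, strandedness and any rule for multiply matching reads were not given in the sources used. The labels name both removal of rRNA and poly(A) selection. RPKM are not counts, so log2(RPKM + 0.5) was compared with limma 3.58.1 (R 4.3.3, mean-variance trend, two-sided, no covariate) over genes averaging 0.5 RPKM or more, with Benjamini-Hochberg adjustment over all 12486. The added 0.5 understates changes of low genes. The procedure was tested on simulated data in which few genes changed, unlike these data, so that test does not check the calls made here. The design text calls the 2 libraries of a group biological replicates, but whether they were separate cultures is not stated, so the spread may be partly technical. Relative depth came from the commonest ratio between low values of 2 libraries.

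Chromosome, GC content and transcripts came from GENCODE M21 (GRCm38), matched by identifier (92.8% of genes), and promoters from RefSeq GRCm38.p6, not the authors' build. Shared sequence was found with BLAST 2.17.0 at 95% identity over at least 100 bases. The members and lists were chosen with earlier results of these data known. Named genes were Hnrnpk, the 10 subunits, every other BAF gene found, up to 3 called genes of lowest p in each further list, and the 3 genes most like the subunit with the largest change. Chpf2, 1600012H06Rik and the Gm genes were named afterwards for shared sequence. Alternatives were other added values, filters, scalings, GC correction, a replicate block, limma without its trend, and leaving out each library.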

Additional observations from a re-analysis of the deposited data

How the results depend on the processing

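Over 14 alternatives, 7 of the 10 subunits (the 6 called lower and Brd9) kept their direction and their call, as did 8 of the 17 other BAF subunits wherever they were tested (Smarca2 was not tested at a mean of at least 1 RPKM). Of 9 ratios between relatives, 8 kept their direction under the alternatives that tested both genes; Smarca4 to Smarca2 had no value at that filter, and Actl6a to Actl6b had one only without a filter. All counts of called BAF genes stayed within 1.5 times those reported. Without a filter, 5 INO80 and SRCAP-TIP60 genes were called higher and 3 lower, and 3 ISWI genes were called lower; leaving out 1 library at a time gave 2 to 5 ISWI genes called lower. Small changes turned sign: Actl6a under quantile normalization (-0.013) and over -0.0084 to 0.14 without 1 library; Smarcc1 over -0.068 to 0.037; Dpf1 over -0.20 to 0.033, and 0.020 with GC trends removed, with or without the replicate block; Ss18l1 under quantile normalization (0.0072). The ratio of Smarcd1 to Smarcd2 differed by -0.045 under quantile normalization and by -0.036 to 0.066 without 1 library. The cause was not tested. Same-numbered libraries did not deviate together (r = 0.027 across 12486 genes), so the numbers were not taken as pairs; with the replicate block 4162 genes were called higher and 4460 lower, against 4025 and 4371, and of the BAF genes the call of Arid2 changed. With 2 libraries per group every call rests on the variance limma pools across genes.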
